A study of Mus musculus with 12 samples.

Results

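The genes described here are the protein and lipid kinases of intracellular signalling on a spotted mouse cDNA array, together with the subunits and partners that carry the same gene symbol stems. They were picked by symbol alone: every gene of the array's probe table whose name starts as a MAP kinase of any tier, a cyclin-dependent kinase (Cdk), a calmodulin-dependent kinase (Camk), a Prk gene, a casein kinase (Csnk), an Stk gene, a phosphoinositide 3-kinase gene (Pik3), an Akt or a ribosomal S6 kinase (Rps6k), and that had values in all 12 samples. The rule gave 91 genes of the 6427 genes with values, read by 168 cDNA clones. Of these 91 genes, 71 encode kinases and 20 encode regulatory subunits, binding partners or proteins that only share the stem, such as Prkcsh, which encodes a subunit of glucosidase II. Another 7 clones name a gene of these families together with other genes and were not used. The samples were brains of C57Bl/6j mice at postnatal day 10, with 4 biological replicates each of Gja9 (-/-) mice (Gja9_null), Gja9 (+/-) mice (Gja9_het) and wildtype mice. Gja9 is the older symbol of Gjd2, the connexin of neuronal gap junctions. No clone in the probe table carries either symbol, so its loss was not checked here; 2527 of the 13443 clones with values have no gene name. The labels give no promoter or allele detail beyond the copy number, and the whole brain was used.

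Kinases transfer a phosphate from ATP to proteins or lipids and so pass on signals from receptors, calcium and cyclic nucleotides. MAP kinases work in tiers, in which a Map3k phosphorylates a Map2k and this in turn a Mapk. Lipid kinases of the Pik3 family produce the membrane signal that activates Akt, while PKA responds to cAMP, PKC to diacylglycerol and often calcium, and the Camk kinases to calcium-bound calmodulin. In the brain these families act on synaptic strength, axon growth and survival, and PKA and calmodulin-dependent kinases are known to phosphorylate gap junction proteins. An array of this kind reads transcripts, not kinase activity.

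The values are log2 signals relative to the mean signal of the same sample, so a difference of 1 is a doubling of relative signal. Values of different clones are not comparable as transcript abundance. Each array held 2 samples of 1 genotype in opposite dyes, so the 12 samples lay on 6 arrays, with 2 arrays in each genotype. The samples are named by number: samples 1 and 2 lay on the first array of a genotype and samples 3 and 4 on the second, as read from the values. Over the 91 genes, the median absolute difference between the arrays of a genotype was 0.37 in Gja9_null, 0.23 in Gja9_het and 0.33 in wildtype, while that between the colours of 1 array lay between 0.083 and 0.15. The first Gja9_null array stood apart for these genes too, since the SD of their deviations from the gene means was 0.53 there and between 0.24 and 0.37 on the other 5 arrays. The pairing was itself read from the likeness of the samples, so the smaller difference within an array does not test it. Differences below were tested with limma on the 12 samples, with the array as a random block and Benjamini-Hochberg adjustment over all 9514 features. A gene was called at an adjusted p under 0.05. This fit has 14.5 total degrees of freedom, 6.53 of them from the limma prior, so it does not take the array as the unit. A standard error (SE) follows each difference. Because genotype varies only between arrays, the result of a fit on the 6 array means, which does so, is given beside each call.

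Of the 9 neuronal markers listed, 5 were measured (Tubb3, Syt1, Nefl, Nefm and Map2), and their summed signal on the log2 scale lay between 3.79 and 4.63 in Gja9_null, between 4.34 and 4.60 in Gja9_het and between 4.28 and 4.60 in wildtype, with a median difference of -0.30 between Gja9_null and wildtype. All 5 lay among the brightest 25% of features, which ranks spots and not abundance. Of the 4 pituitary and the 4 skeletal muscle markers listed, 0 were measured. No cell type's markers were tested as a set, and the ranges over the samples are given here. The summed signal of the 3 measured astrocyte markers of 7 listed (Slc1a3, Aldoc and Fabp7) lay between 3.48 and 3.79 on the log2 scale in Gja9_null, between 2.91 and 3.32 in Gja9_het and between 2.71 and 3.30 in wildtype. Gja9_null thus lay above both other genotypes in this sum, but the median difference of the 3 genes was 0.90 against wildtype and 0.036 against Gja9_het. For the 2 measured oligodendrocyte markers of 6 listed (Mbp and Cnp), the ranges were 2.65 to 3.78 in Gja9_null, 3.06 to 3.94 in Gja9_het and 3.69 to 4.10 in wildtype, so all 3 genotypes overlapped. The 3 microglial markers measured of 6 (C1qa, C1qb and Tyrobp) summed to 0.73 to 1.35 in Gja9_null, 1.79 to 1.97 in Gja9_het and 1.20 to 1.78 in wildtype, where Gja9_null lay below Gja9_het and overlapped wildtype. The ranges of the 3 genotypes also overlapped for the neuronal markers and for the erythroid (3 of 4 measured), choroid plexus (1 of 4) and meningeal (4 of 5) markers. The part of these marker levels in the kinase values was not tested, and in whole brain RNA fewer cells of a type cannot be told apart from less RNA per cell.

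Against wildtype, limma with the array block called 1 of the 91 genes in Gja9_null brains, and it was Cdk13, which was lower. On array means the fit called 0 of the 91 genes (smallest adjusted p = 0.0916) and 2 of the 9514 features. With the array block, 0.326% of all features were called in this comparison (0.21% lower and 0.116% higher), and the p-values below are from this fit. At an unadjusted p under 0.05 there were 4 genes with lower signal (Camk1, Cdk13, Mapk1ip1 and Prkaca; background 9.22%) and 1 with higher signal (Cdk18; background 2.41%), which is 5.49% of the kinase genes in all, against 11.6% of all features. The median difference of the 91 genes was -0.0061, against -0.10 over all features, and 45 of them (49.5%) stood above 0, against 41.1% of features. For 71 of the 91 genes the estimated difference lay within 0.5 log2 units of 0, against 6671 of the 9514 features. For 3 genes (Cdk13, Cdk18 and Prkcb) it reached 1 or more in size, against 685 of the 9514 features. The groups of 4 samples did not overlap for 9 genes with higher signal in Gja9_null (9.89%, background 7.52%) and for 11 with lower signal (12.1%, background 15.6%), so the shares of the kinase genes lay near those of the array.

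**Figure D1:**
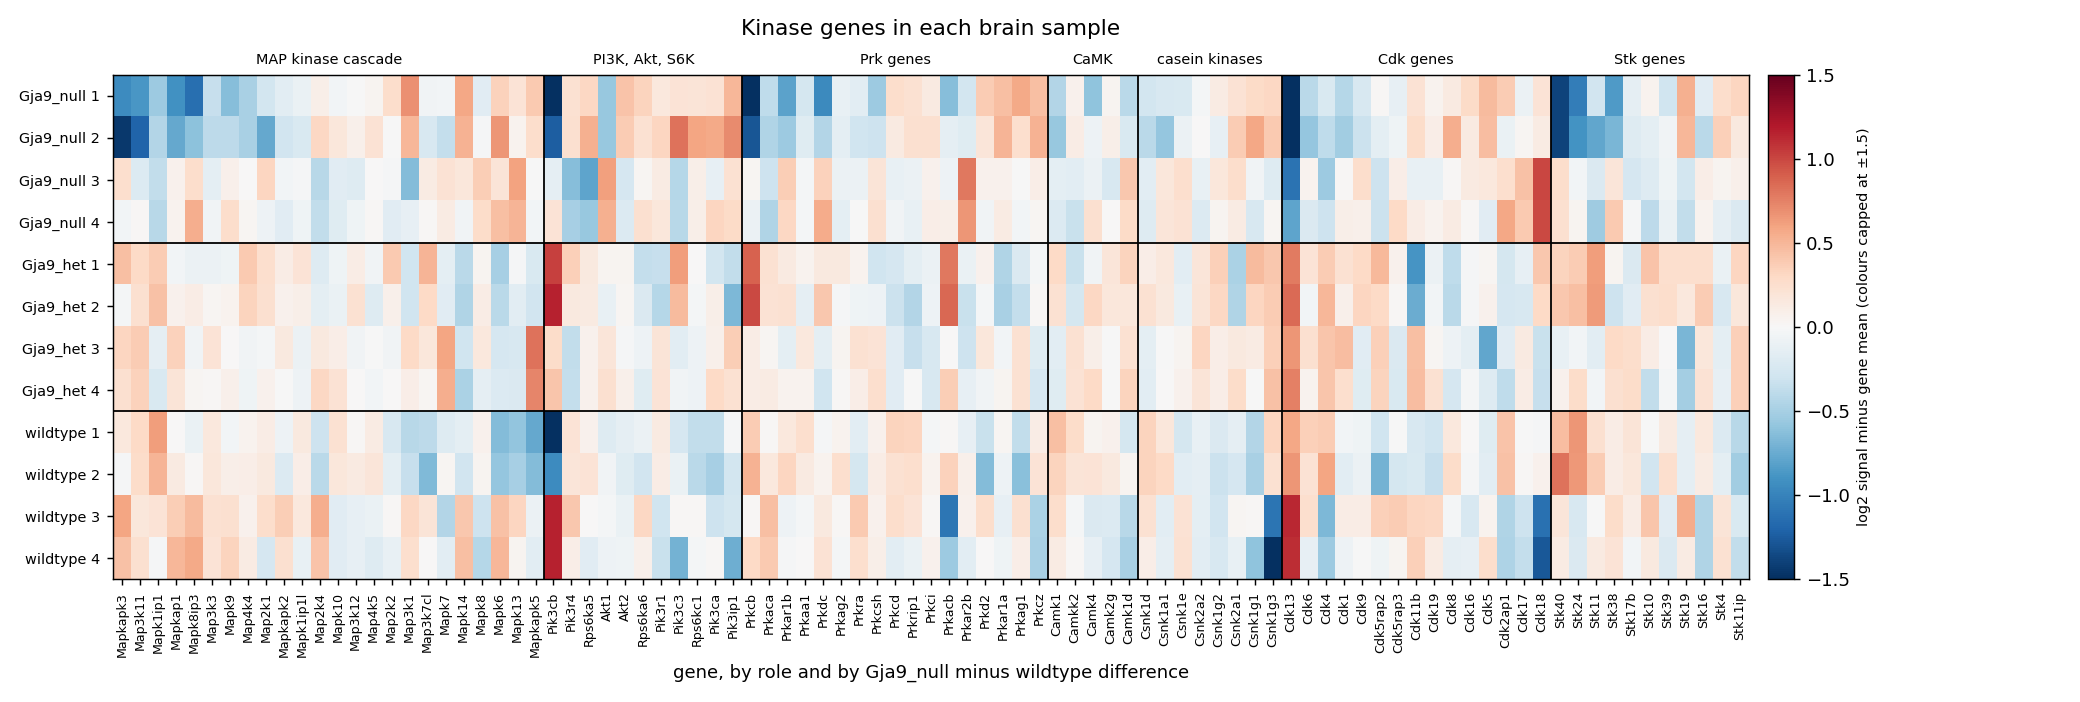
The 91 genes in each of the 12 samples, with samples down the page (Gja9_null, Gja9_het, wildtype) and genes across, ordered by family and by the Gja9_null minus wildtype difference. Colour is the log2 signal minus the gene's mean over the samples, capped at 1.5 in either direction. Colours of neighbouring samples of 1 array resemble each other, and Cdk13 is below its mean in all 4 Gja9_null samples, deepest in samples 1 and 2.

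Because 2 cyclin-dependent kinase genes had the lowest and the highest difference of the set, the promoters of both are shown. Cdk13 encodes a kinase that, with cyclin K, phosphorylates RNA polymerase II during transcription elongation, and Cdk18 encodes a PCTAIRE kinase, a subfamily of atypical Cdks found in neurons among other cells. The windows run from 250 bases before to 50 after the RefSeq start of each gene (GRCm38.p6, both genes on the minus strand, at chr13:17805048-17805347 for Cdk13 and chr1:132139636-132139935 for Cdk18), and capitals mark the matches of 3 motifs searched on both strands: the GC box GGGCGG, the E-box CACGTG and the CCAAT box CCAAT.
Cdk13: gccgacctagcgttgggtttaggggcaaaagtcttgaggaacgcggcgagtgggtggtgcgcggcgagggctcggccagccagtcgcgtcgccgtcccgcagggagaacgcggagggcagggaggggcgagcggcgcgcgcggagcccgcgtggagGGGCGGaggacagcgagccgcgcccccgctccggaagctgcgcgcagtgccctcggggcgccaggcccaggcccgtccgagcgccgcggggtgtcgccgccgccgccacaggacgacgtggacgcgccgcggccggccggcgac
Cdk18: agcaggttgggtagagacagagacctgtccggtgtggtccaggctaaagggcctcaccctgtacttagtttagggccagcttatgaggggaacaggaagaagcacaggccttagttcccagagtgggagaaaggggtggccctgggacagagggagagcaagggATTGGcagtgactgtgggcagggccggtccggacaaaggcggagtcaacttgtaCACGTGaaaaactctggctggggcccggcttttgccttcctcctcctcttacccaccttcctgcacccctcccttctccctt
The Cdk13 window held 52 CpG dinucleotides and 78.3% G and C, and 99.4% of the 32851 mouse windows of this length had fewer CpGs. The Cdk18 window held 6 CpGs and 58.7% G and C, and 43.6% of windows had fewer CpGs. In Cdk13 the only match was 1 GC box. In Cdk18 there were 1 E-box and 1 CCAAT box, which is read as ATTGG on the strand shown. The GC box occurred in 35.7% of all windows, the E-box in 7.15% and the CCAAT box in 37.4%. Of the kinase genes, 76 matched the promoter table with 117 windows, of which 79 held a GC box (67.5%), 14 an E-box (12%) and 40 a CCAAT box (34.2%). Their median CpG count was 22, against 7 over all windows, and the GC box itself holds a CpG. These matches describe the sequence only.

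Cdk13 was measured by 1 clone. Its log2 signal was -5.16, -5.20, -3.97 and -3.65 in the 4 Gja9_null samples, -2.09, -2.01, -2.20 and -2.11 in the Gja9_het samples and -2.28, -2.19, -1.73 and -1.75 in the wildtype samples. All Gja9_null samples lay below all others, the first array further than the second, while Gja9_het and wildtype overlapped. The difference was -2.51 ± 0.41 for Gja9_null against wildtype (limma, adjusted p = 0.0206), which leaves 17.6% of the wildtype signal, and it was the lowest of all 9514 features. On the 6 array means the adjusted p was 0.0916, so the call was lost. Without the first Gja9_null array the difference was -1.82. Only 1 Gja9_null array is then left, so the spread between arrays would come from the other genotypes alone, and this value is given with no test. The clone was dim: its mean signal stood at percentile 2.1 of all features.

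Cdk13 also sat in a stretch of probe numbers in which the Gja9_null arrays ran low as a whole. Deviations on these arrays follow the probe number, and the median deviation of the features within 50 probe numbers of Cdk13 was 1.43 log2 units lower in Gja9_null than in wildtype. When each sample was centred on this local median (local centring), the Cdk13 values were -3.92, -3.78, -3.31 and -3.13 in Gja9_null, between -2.86 and -2.60 in Gja9_het and between -2.54 and -2.36 in wildtype. All Gja9_null samples still lay below all others, and the Gja9_het samples now lay below the wildtype samples. The difference between Gja9_null and wildtype was -1.08 ± 0.21 (limma, adjusted p = 0.0387), against -2.51 in the deposited values. With local centring on array means the adjusted p was 0.277.

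Cdk18 was also measured by 1 clone, and it was the only kinase gene with a higher signal at an unadjusted p under 0.05. Its log2 signal was -0.60, -0.69, 0.20 and 0.19 in Gja9_null, -0.40, -0.51, -1.15 and -1.15 in Gja9_het and -0.83, -0.75, -1.93 and -2.08 in wildtype. The Gja9_null samples all lay above the wildtype samples, but the arrays of a genotype lay apart, with means of -0.65 and 0.19 in Gja9_null and of -0.79 and -2.003 in wildtype. The difference from wildtype was 1.17 ± 0.40, a 2.25-fold signal (unadjusted p = 0.0112, adjusted p = 0.283). After local centring it was 1.54 ± 0.31 (adjusted p = 0.0481), which made Cdk18 the second kinase gene called there, 1 higher beside 1 lower (2.20% of the 91 genes, against 0.589% of all features, 0.347% higher and 0.242% lower), and on locally centred array means the adjusted p was 0.277.

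**Figure D2:**
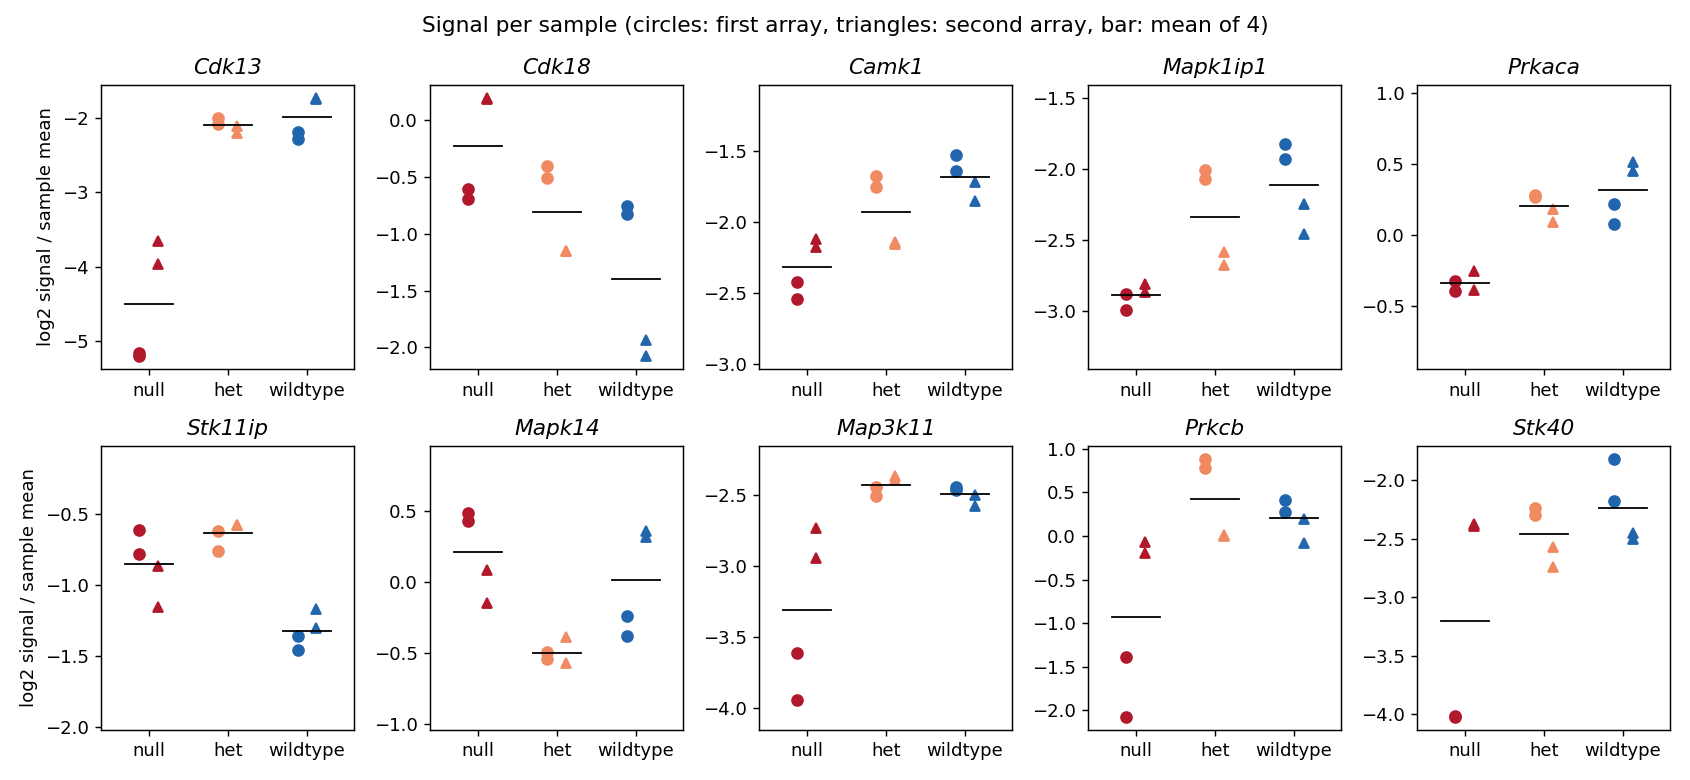
Log2 signal relative to the sample mean in each sample for 10 genes, with Gja9_null, Gja9_het and wildtype from left to right; circles are samples 1 and 2 (first array), triangles samples 3 and 4 (second array), and bars the mean of 4. Vertical axes differ between panels and span at least 2 log2 units. For Cdk13 all Gja9_null points lie below all others, while for Stk40 only the circles do.

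The other cyclin-dependent kinase genes did not pass the test. Over the 15 Cdk symbols the median difference between Gja9_null and wildtype was 0.069, with 9 above and 6 below 0, and 13 lay within 0.5. Cdk4, a G1 kinase of cyclin D, averaged -0.65 ± 0.13 in Gja9_null, 0.14 ± 0.05 in Gja9_het and -0.35 ± 0.64 in wildtype (SD over 4 samples). Its wildtype arrays lay far apart, at 0.09 and 0.30 on the first and -0.96 and -0.84 on the second, and the Gja9_null and wildtype samples overlapped (difference -0.30 ± 0.38). Cdk6, its close relative, differed by -0.46 ± 0.28 and Cdk1, the mitotic kinase, by -0.17 ± 0.30. Cdk5, the Cdk of postmitotic neurons, differed by 0.24 ± 0.53. Cdk16 and Cdk17, the PCTAIRE relatives of Cdk18, differed by 0.23 ± 0.30 and 0.36 ± 0.29. Cdk16 was among the 5 least variable genes of the set over the arrays (SD 0.13). Its value averages 5 clones, which can lower the SD, and these clones differed by -0.31 to 0.81 between Gja9_null and wildtype.

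In the MAP kinase cascade, 24 genes were measured and none was called in Gja9_null against wildtype (0 at an adjusted p under 0.05 by limma, 1 at an unadjusted p under 0.05). Their median difference was -0.11, with 10 above and 14 below 0. Mapk1ip1 had signals of -2.99, -2.88, -2.81 and -2.87 in Gja9_null, -2.07, -2.01, -2.58 and -2.68 in Gja9_het and -1.82, -1.93, -2.25 and -2.46 in wildtype. The Gja9_null samples lay below all others (difference from wildtype -0.77 ± 0.33, adjusted p = 0.385), and local centring left -0.22 ± 0.22. Its 2 clones differed by -1.37 ± 0.46 and -0.18 ± 0.37, so that 1 clone carried most of the difference. Map3k11, a mixed-lineage kinase that feeds the JNK branch, had -3.62, -3.94, -2.95 and -2.73 in Gja9_null, against -2.45, -2.47, -2.58 and -2.50 in wildtype. Again the first Gja9_null array was the lowest, the groups did not overlap, and the difference of -0.81 ± 0.40 (adjusted p = 0.457) was -0.16 ± 0.23 after local centring. Mapkapk3, a kinase activated by p38 MAP kinase, had the lowest difference of the cascade (-0.84 ± 0.44), which came to -0.19 after local centring.

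No MAP kinase itself passed the test. The stress kinase genes Mapk8, Mapk9 and Mapk10, which encode the JNKs, differed from wildtype by 0.27 ± 0.35, -0.33 ± 0.29 and -0.07 ± 0.30 in Gja9_null. The upstream kinases Map2k1, Map2k2 and Map2k4 differed by -0.27 ± 0.50, 0.14 ± 0.35 and -0.16 ± 0.38. Mapk6, which encodes the atypical kinase ERK3, had -0.38, -0.06, -0.53 and -0.28 in Gja9_null, against -1.37, -1.31, -0.28 and -0.22 in wildtype. The second wildtype array thus reached the Gja9_null level and the first did not (difference 0.49 ± 0.36, adjusted p = 0.649). Mapkapk5 was the highest of the cascade, at 0.57 ± 0.35 against wildtype, with all 4 Gja9_null samples (-0.65 to -0.21) above all 4 wildtype samples (-1.37 to -0.69). Map3k12, a kinase of axon injury signalling, Map4k5 and Mapk1ip1l were among the 5 least variable genes, with SDs over the arrays of 0.12, 0.13 and 0.12. Their values average 5, 3 and 2 clones, which can lower the SD.

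For the phosphoinositide 3-kinases, Akt and the S6 kinases, 0 of 11 genes were called by limma in Gja9_null against wildtype, and 0 had an unadjusted p under 0.05. Their median difference was 0.21, with 8 above and 3 below 0, and it was 0.12 after local centring. Pik3ip1, an inhibitor that binds the catalytic subunit, had -0.98, -0.76, -1.24 and -1.18 in Gja9_null, -1.84, -2.14, -1.10 and -1.24 in Gja9_het and -1.49, -1.74, -1.74 and -2.20 in wildtype. The Gja9_null samples lay above the wildtype samples and overlapped Gja9_het (difference from wildtype 0.75 ± 0.48, adjusted p = 0.586), with 0.74 ± 0.34 after local centring. Pik3ca, the alpha catalytic subunit, differed by 0.54 ± 0.40 (adjusted p = 0.649), and Pik3r1, its regulatory partner, by 0.29 ± 0.30. Pik3cb, the beta catalytic subunit, was the second most variable gene of the set over the arrays, after Cdk13 (SD 1.11). Its signals were -4.42, -4.09, -2.99 and -2.65 in Gja9_null, -1.83, -1.70, -2.58 and -2.44 in Gja9_het and -4.38, -3.81, -1.70 and -1.70 in wildtype, so that the wildtype arrays alone spanned more than 2 log2 units. Akt1 and Akt2 differed by 0.09 ± 0.36 and 0.20 ± 0.28.

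The Prk genes, which cover PKA, AMPK, PKC and others, numbered 17, with 7 above and 10 below 0 and a median difference of -0.10 in Gja9_null against wildtype. Prkaca, the alpha catalytic subunit of PKA, had -0.32, -0.40, -0.25 and -0.39 in Gja9_null, 0.28, 0.27, 0.09 and 0.18 in Gja9_het and 0.08, 0.22, 0.51 and 0.45 in wildtype. Here both Gja9_null arrays lay at the same level, below all other samples, unlike in Cdk13 and Map3k11, where the first array stood lower. The difference was -0.65 ± 0.29, or 63.5% of the wildtype signal (unadjusted p = 0.0408, adjusted p = 0.408), and -0.21 ± 0.20 after local centring. Its clones differed by -1.13 ± 0.39 and -0.18 ± 0.34. Prkacb, the beta catalytic subunit, differed by 0.13 ± 0.43, and the regulatory subunit genes Prkar1a, Prkar1b and Prkar2b by 0.35 ± 0.28, -0.26 ± 0.35 and 0.29 ± 0.42.

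Prkcb, a calcium-dependent PKC of neurons, had signals of -2.07, -1.39, -0.07 and -0.20 in Gja9_null, 0.77, 0.89, 0.00 and 0.01 in Gja9_het and 0.27, 0.42, -0.08 and 0.20 in wildtype. Only the first Gja9_null array was far below wildtype, and the second overlapped it. The difference of -1.13 ± 0.59 (adjusted p = 0.493) came to -0.37 ± 0.35 after local centring. The other PKC genes Prkcd, Prkci and Prkcz differed by -0.10 ± 0.35, 0.11 ± 0.25 and 0.44 ± 0.30. Among AMPK genes, Prkag2, a gamma subunit, was the least variable gene of the whole set (SD over arrays 0.11), with means of -1.85 ± 0.03 in Gja9_null, -1.69 ± 0.07 in Gja9_het and -1.66 ± 0.12 in wildtype. Its samples did not overlap between Gja9_null and wildtype although the difference was only -0.20 ± 0.30, and local centring moved it to -0.53 ± 0.19 (adjusted p = 0.22). Prkaa1, a catalytic subunit read by 5 clones, differed by -0.22 ± 0.29.

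Of the 5 calmodulin-dependent kinase genes, Camk1 had the lowest signal relative to wildtype, with -2.42, -2.54, -2.12 and -2.17 in Gja9_null, -1.67, -1.75, -2.14 and -2.15 in Gja9_het and -1.53, -1.64, -1.72 and -1.85 in wildtype. The Gja9_null samples lay below the wildtype samples and overlapped the second Gja9_het array. The difference was -0.63 ± 0.27 (unadjusted p = 0.0339, adjusted p = 0.386) and, unlike that of Prkaca or Mapk1ip1, it kept most of its size after local centring (-0.46 ± 0.20, adjusted p = 0.296). Its 2 clones differed by -1.01 ± 0.36 and -0.24 ± 0.34. Camk2g, a subunit of CaMKII read by 5 clones, differed by 0.04 ± 0.29. Camk4, a nuclear kinase of neurons, differed by -0.11 ± 0.35 and Camk1d by 0.29 ± 0.39. Camkk2, which phosphorylates Camk1 and Camk4, differed by -0.19 ± 0.30.

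Among the 8 casein kinase genes, the median difference of Gja9_null from wildtype was 0.18, with 6 above and 2 below 0, and limma called 0 (0 at an unadjusted p under 0.05). Csnk1d, a kinase of the circadian clock, averaged -1.34 ± 0.11 in Gja9_null, -1.07 ± 0.19 in Gja9_het and -0.83 ± 0.11 in wildtype (SD over 4 samples). The Gja9_null and wildtype samples did not overlap, and the difference of -0.51 ± 0.29 (adjusted p = 0.531) was 0.05 ± 0.19 after local centring. Csnk1g2 averaged -0.53 ± 0.13 in Gja9_null, -0.36 ± 0.14 in Gja9_het and -0.84 ± 0.04 in wildtype, and both mutant genotypes lay above all wildtype samples. Its differences from wildtype were 0.32 ± 0.29 in Gja9_null and 0.48 ± 0.29 in Gja9_het (adjusted p = 0.727 and 1). Its 2 clones differed by 0.32 ± 0.37 and 0.31 ± 0.39 in Gja9_null, but by 0.03 ± 0.37 and 0.93 ± 0.39 in Gja9_het. The catalytic subunits of casein kinase 2, Csnk2a1 and Csnk2a2, differed by 0.36 ± 0.34 and 0.05 ± 0.25 in Gja9_null.

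The 11 Stk genes had a median difference of -0.23 between Gja9_null and wildtype, with 3 above and 8 below 0, and of -0.05 after local centring. Stk40 had -4.02, -4.02, -2.37 and -2.39 in Gja9_null, -2.30, -2.23, -2.74 and -2.57 in Gja9_het and -2.17, -1.81, -2.45 and -2.51 in wildtype. The second Gja9_null array was thus at the wildtype level and the first more than 1 log2 unit below it. The difference of -0.97 ± 0.47 (adjusted p = 0.45) was -0.14 ± 0.23 after local centring. Stk24, a kinase of the Hippo-related MST family, showed the same split, with -3.40, -3.25, -2.40 and -2.31 in Gja9_null against -1.69, -1.71, -2.60 and -2.57 in wildtype, and its difference changed from -0.70 ± 0.39 to 0.10 ± 0.22 when local centring was applied. Stk11, the tumour suppressor LKB1 that activates AMPK, differed by -0.64 ± 0.49, and by -0.05 after local centring.

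The shift of the neighbouring features ran with the differences of the kinase genes. Across the 91 genes, the Gja9_null minus wildtype difference and the local shift at their probe numbers had a correlation of 0.75, a description over genes that share the same arrays. For 10 genes the local shift was below -0.5 (Cdk6, Cdk13, Csnk1d, Map3k11, Mapk1ip1, Mapkapk3, Prkcb, Stk11, Stk24 and Stk40), and for 0 it was above 0.5. The share of all features with such a shift is not given here. Local centring turned the sign of the difference in 23 of the 91 genes. After it, 9 genes had an unadjusted p under 0.05 (9.89%, background 15.2%). Local centring can also remove a change that neighbouring clones share.

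**Figure D3:**
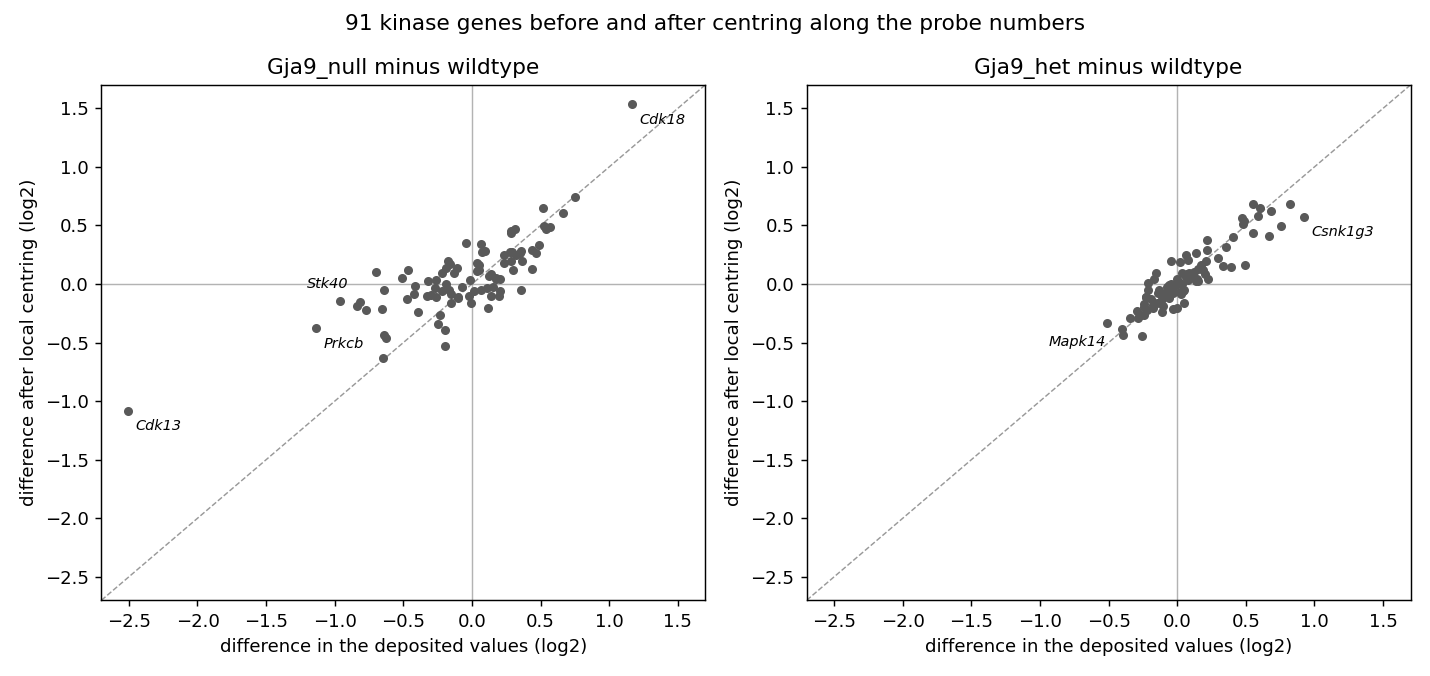
Differences of the 91 genes in the deposited values (horizontal axis) against those after local centring (vertical axis), both in log2 units, for Gja9_null minus wildtype on the left and Gja9_het minus wildtype on the right; each point is 1 gene and the dashed line marks equal values. On the left Cdk13 lies at -2.51 and -1.08 and Cdk18 at 1.17 and 1.54, while Prkcb and Stk40 move towards 0.

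The estimates of clones of the same gene were often of opposite sign. Of the 41 genes with several clones, 17 had all clones on the same side of 0 in Gja9_null against wildtype, 13 in Gja9_het against wildtype and 13 in Gja9_null against Gja9_het. The median spread between the highest and the lowest clone was 0.66 log2 units in the first of these comparisons, where the quartiles of the genes' differences were -0.26 and 0.25. It was widest in Mapk9, whose 3 clones differed by -1.55 ± 0.63, -0.03 ± 0.42 and 0.60 ± 0.38. Stk39, a kinase of chloride cotransporters, had clones between -1.09 and 0.85, Cdk9, the kinase of the elongation factor P-TEFb, between -1.09 and 0.62, Cdk19, of the Mediator complex, between -0.79 and 0.64, and Csnk1a1, of the Wnt pathway, between -0.83 and 0.58. For these 5 genes, picked for the widest spread, the gene mean averages clones of opposite sign. The SEs of their highest and lowest clones lay between 0.33 (Cdk19) and 0.67 (Stk39). None of these clones was called by limma when each clone was tested alone. Cdk13 and Cdk18 had 1 clone each, so neither difference has a second clone beside it. Whether the clones of a gene read different transcripts was not tested. Nor was it tested whether their spread exceeds the error of the clones. The share of same-sign genes among all genes with several clones is not given here.

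**Figure D4:**
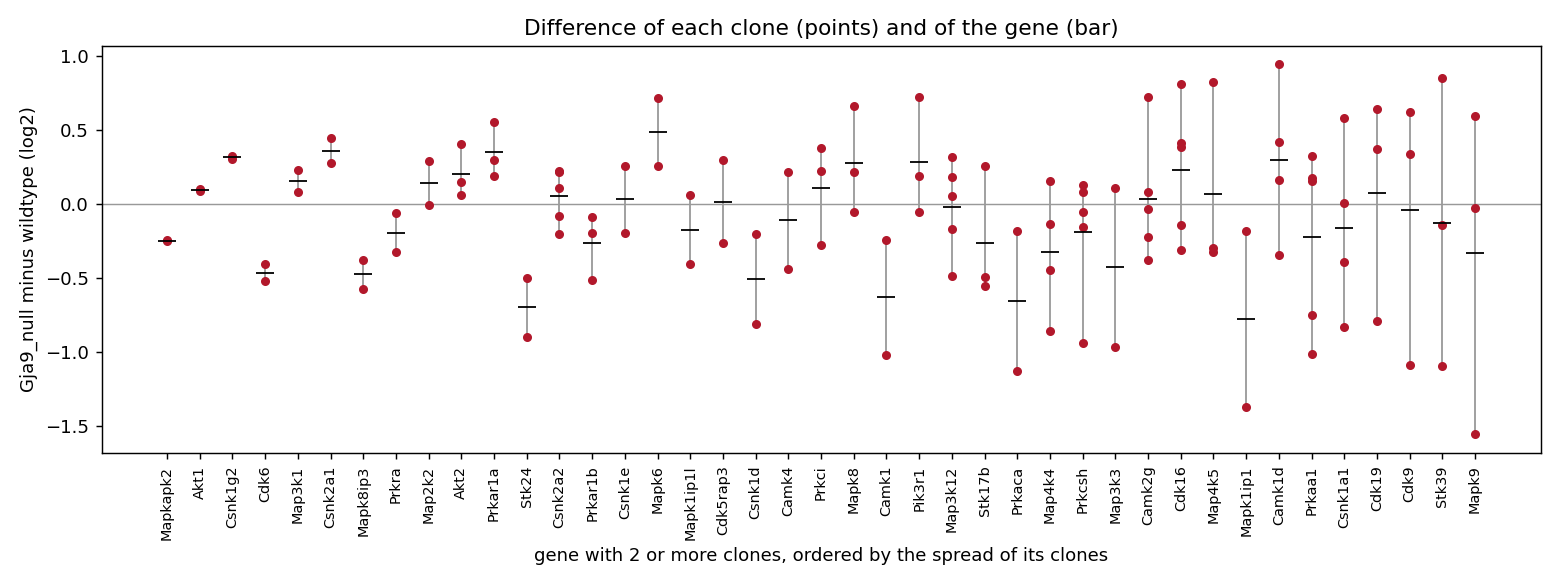
Difference between Gja9_null and wildtype of each clone (points, log2 units) for the 41 genes with 2 or more clones, ordered from left to right by the spread of the clones; the short bar is the difference of the gene. Clones of Mapkapk2, Akt1 and Csnk1g2 nearly coincide, and those of Mapk9 span 2.15 log2 units.

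In mice with 1 copy of Gja9, limma called 0 of the 91 genes against wildtype (background 0.0%, smallest adjusted p 1), and at an unadjusted p under 0.05 there was 1 with higher signal, Stk11ip (1.10%), against 1.67% of all features with higher signal and 2.19% in either direction. After local centring 0 were called (background 0.0105%) and 6 had an unadjusted p under 0.05 (6.59%, background 7.13%). The median difference was 0.024, against 0.033 over all features, and 48 genes (52.7%) stood above 0, against 54.4% of features. Within 0.5 of 0 lay 81 of the 91 genes, against 8326 of the 9514 features. Stk11ip, whose product binds LKB1, had -0.61, -0.78, -0.86 and -1.15 in Gja9_null, -0.62, -0.76, -0.58 and -0.58 in Gja9_het and -1.35, -1.46, -1.17 and -1.30 in wildtype. All Gja9_het samples lay above all wildtype samples, by 0.69 ± 0.28 (1.61-fold, unadjusted p = 0.029, adjusted p = 1), and by 0.62 ± 0.19 after local centring (adjusted p = 0.451). The array means gave an unadjusted p of 0.0565.

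The highest estimate in Gja9_het was that of Csnk1g3, at 0.93 ± 0.54, where the samples read -0.59, -0.61, -0.63 and -0.55 in Gja9_het and -0.66, -0.76, -2.09 and -2.57 in wildtype. The difference lay almost wholly in the second wildtype array. Prkacb had 0.70, 0.77, -0.09 and 0.28 in Gja9_het, against -0.08, 0.26, -1.18 and -0.63 in wildtype, an overlapping pair of groups (0.82 ± 0.43, unadjusted p = 0.078). Mapkapk5 differed by 0.67 ± 0.35 and Map3k7cl by 0.47 ± 0.29, both with overlapping samples. The lowest was Mapk14, the p38 alpha MAP kinase, at -0.51 ± 0.32. Groups did not overlap for 7 genes with higher signal (7.69%, background 8.67%) and for 3 with lower signal (3.30%, background 6.09%). In Gja9_het the difference of Cdk13 was -0.11 ± 0.41, with a 95% interval from -0.98 to 0.76, and that of Cdk18 was 0.59 ± 0.40. After local centring they were -0.24 ± 0.21 and 0.58 ± 0.31.

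Set against Gja9_het, Gja9_null brains again had 1 called gene of the 91, Cdk13, at -2.40 ± 0.41 (adjusted p = 0.028), or 19.0% of the Gja9_het signal. Of all features, 0.273% were called here (0.263% lower and 0.0105% higher). The Gja9_null arrays are those already set against wildtype, so this is no separate evidence. On array means the adjusted p was 0.0765, and after local centring Cdk13 differed by -0.84 ± 0.21 (adjusted p = 0.0705), so neither kept the call. Local centring called 0 of the 91 genes here, against 1.41% of all features, and left 10 with an unadjusted p under 0.05 (background 20.4%). In the deposited values there were 4 such genes (4.40%, background 15.0%): Mapk14 with higher signal (background 3.64%), and Cdk13, Map3k11 and Prkcb with lower signal (background 11.3%). Mapk14 had 0.49, 0.43, 0.08 and -0.15 in Gja9_null, -0.49, -0.54, -0.38 and -0.57 in Gja9_het and -0.24, -0.38, 0.32 and 0.36 in wildtype. Gja9_null and Gja9_het did not overlap (0.71 ± 0.32, adjusted p = 0.318), while the first wildtype array lay at or just above the highest Gja9_het sample and the second at the Gja9_null level. After local centring the difference was 0.23 ± 0.18.

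Other genes with low p in Gja9_null against Gja9_het were Prkcb at -1.35 ± 0.59, Map3k11 at -0.88 ± 0.40, Pik3cb at -1.40 ± 0.66, Cdk4 at -0.79 ± 0.38, Stk24 at -0.75 ± 0.39 and Mapk6 at 0.75 ± 0.36, with adjusted p between 0.311 and 0.386 for these 6. Over the 91 genes the median difference was -0.13, against -0.17 over all features, and 32 (35.2%) stood above 0, against 36.9% of features. Within 0.5 of 0 lay 70 of the 91 genes, against 6073 of the 9514 features. The groups did not overlap for 13 genes with higher signal (14.3%, background 10.2%) and 14 with lower signal (15.4%, background 22.5%).

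Genes that act with these kinases were counted in 8 lists, of which 101 genes were measured, and limma called 0 of them in any of the 3 comparisons. In Gja9_null against wildtype, 3 of the 101 had an unadjusted p under 0.05 (2.97%), against 11.6% of all features. Of the 12 measured of 30 listed partners of PI3-kinase, Akt and mTOR, Pdpk1, the kinase that activates Akt, averaged -1.38 in Gja9_null and -0.39 in wildtype (-0.99 ± 0.42, adjusted p = 0.382), and -0.13 was left after local centring. Rictor, a subunit of mTOR complex 2, averaged -0.81 in Gja9_null and -1.72 in wildtype (0.92 ± 0.42, adjusted p = 0.426; 0.71 after local centring). Of the 20 measured of 38 cyclins, Cdk inhibitors and related genes, Cks2, a Cdk-binding subunit, averaged -1.65 in Gja9_null and -0.76 in wildtype (-0.89 ± 0.30, adjusted p = 0.265; -0.57 after local centring). None of the 16 measured Ras and Raf input genes and MAP kinase substrates had an unadjusted p under 0.05 in that comparison. The same held for the 8 MAP kinase phosphatases, 13 cAMP partners, 9 calcium and calmodulin partners, 10 casein kinase partners and 15 Hippo and LKB1 partners measured. The list medians lay between -0.30 for the cAMP partners and 0.028 for the PI3-kinase partners, against -0.10 over all features.

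In Gja9_het against wildtype, 1 of the 101 partners had an unadjusted p under 0.05 (0.990%), against 2.19% of all features. It was Ksr1, a scaffold of the Raf to ERK cascade, which averaged -1.19 in Gja9_het and -1.94 in wildtype (0.75 ± 0.32, adjusted p = 1; 0.80 after local centring). Between Gja9_null and Gja9_het there were 6 (5.94%), all with lower signal in Gja9_null, against 11.3% of all features with lower signal and 15.0% in either direction. Among them were Cks2 (-1.15 ± 0.30, adjusted p = 0.108), Rb1, the retinoblastoma protein that Cdk4 and Cdk6 phosphorylate (-0.99 ± 0.39), Dusp3, a dual-specificity phosphatase (-0.91 ± 0.31), and Foxo1, a transcription factor that Akt phosphorylates (-0.998 ± 0.351). After local centring the difference was -0.72 for Cks2, -0.81 for Rb1, -0.60 for Dusp3 and -0.48 for Foxo1. Pdpk1 was also among the 6 (-1.19 ± 0.42), and -0.26 was left of its difference after local centring. The other was Wee1, which averaged -1.72 in Gja9_null and -0.997 in Gja9_het.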

How the data were processed

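Per the labels' protocols, 60 micrograms of total RNA from each brain, extracted with Trizol, took up Cy5 or Cy3 by direct labelling. Extracts of the same genotype were hybridised together. For wildtype 3 and Gja9_null 1 the labelling text names another dye than the label field, which was followed. The deposited values are log2 signals relative to the sample mean. This scale was inferred, because values taken as powers of 2 average 1.0 in all 12 samples. Background correction, normalization and build: not given in the sources used here. Arrays have no depth, and their number limits the precision.

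Of 13443 probes with values, 10356 have 1 gene in the platform table. Clones of a gene were averaged and other probes tested alone, for 9514 features. Which samples shared an array was inferred from the correlation of the differences between samples 1 and 3 and between samples 2 and 4 (0.93 in Gja9_null, 0.92 in Gja9_het and 0.94 in wildtype). Differences came from limma 3.58.1 in R 4.3.3 (two-sided), with terms for genotype and dye, a random array block (consensus correlation 0.927) and Benjamini-Hochberg adjustment. Nothing in the labels pairs replicate numbers across genotypes. Litters are not stated. Genotype varied only between arrays, so p-values rest mainly on the spread between these 6 arrays, 2 in each genotype.

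For local centring, the median deviation of the probes up to 50 numbers away was taken from each value. The genes, partner lists, markers and alternatives were chosen with earlier results of these data known. Genes are named by p in each comparison and family, by clone disagreement and by variability over arrays, and relatives of these were added after their values were seen. Alternatives changed the array block, pairing, dye, normalization, dim features, clone averaging, prior, threshold and samples. Sequences are from RefSeq. Tables were made with Python 3.11.15 and pandas 2.3.3, figures with matplotlib 3.10.9.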

Additional observations from a re-analysis of the deposited data

Results flagged for a closer look

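In 102 groups of 4 samples (34 named genes in 3 genotypes), 3 held a sample that stood far from the other 3. The limit used is passed by about 1 in 20 groups of 4 independent samples, a rate that does not hold here, because samples of 1 array move together. Map4k5 in Gja9_null had -1.16 in sample 2, against -1.33, -1.37 and -1.35 in samples 1, 3 and 4. Stk39 in Gja9_null had -0.68 in sample 1, against -0.43, -0.43 and -0.47 in the others. Cdk16 in Gja9_het had -0.29 in sample 3, against -0.17, -0.16 and -0.16. The groups concerned span under 0.3 log2 units, and none of the 3 genes was called in any comparison (limma, adjusted p under 0.05).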

How the results depend on the processing

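The number of kinase genes called in Gja9_null against wildtype (1) was 9 with no array block, 70 with the other pairing of samples to arrays, 2 with local centring, and 0 with array means, quantile normalization, cyclic loess, local centring on array means, without the dimmest 25% of features (Cdk13 is among those left out) or with only the 2 genotypes compared. In Gja9_het against wildtype (0) it was 1 with no array block and 50 with the other pairing. In Gja9_null against Gja9_het (1) it was 9 with no array block, 73 with the other pairing and 0 with array means, quantile normalization, cyclic loess, median centring, local centring alone or on array means, without the dimmest features, with only the 2 genotypes, with a trended and robust prior or with each probe tested alone. Leaving out each sample gave 1 throughout in the first comparison, 0 in the second and 0 to 1 in the third. In the third the call of Cdk13 was lost without wildtype 3 or Gja9_het 2, 3 or 4 (limma, adjusted p 0.0509 to 0.0555). Each of these fits keeps the other sample of the same array (consensus correlation 0.927 in the main fit), so they say little about the spread between arrays. Over all features, array means called 2, 0 and 0, local centring 56, 1 and 134, no array block 1464, 70 and 2119 and the other pairing 7122, 5747 and 7543, against 31, 0 and 26.

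The genes' median difference between Gja9_null and wildtype (-0.0061) was 0.109 with quantile normalization, 0.0922 with cyclic loess, 0.0705 with median centring, 0.0415 with local centring alone or on array means, 0.0711 without the dimmest features and -0.0588 to 0.0453 when each sample was left out. Quantile normalization put the median of all features at 0.024 in place of -0.10. In Gja9_het against wildtype the genes' median (0.024) was -0.0288, -0.0172 and -0.0114 under quantile, cyclic loess and median centring, and -0.0041 to 0.0297 when leaving out samples. In Gja9_null against Gja9_het (-0.13) it was 0.0437, 0.0421 and -0.0213 under the same 3, 0.0411 with local centring alone or on array means, -0.0991 without the dimmest features, -0.0845 without the first Gja9_null array and -0.156 to -0.125 when leaving out samples. The cause of these shifts was not tested.

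With the replicate number as a block, 1, 0 and 1 kinase genes were called in the 3 comparisons, as without it, and 45, 0 and 44 of all features. Of 1286 alternatives for the 50 differences of named genes, 1176 kept direction and side of the threshold, 17 (all of Cdk13) lost the call, 56 gained one, 37 (in 12 uncalled differences) changed sign, and 0 turned a called value round. Only the differences of Cdk13 from wildtype and from Gja9_het were called to begin with, so for the others a kept side means staying uncalled. The 17 lost calls therefore belong to the alternatives of Cdk13 alone, and the 1286 are no measure of how firm its call is. The alternatives include the fits with no array block and with the other pairing, which called the most kinase genes. The 56 are not split by alternative here. The clones' signal over background is unknown, which limits the dim genes, Cdk13 among them.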
